A study of Homo sapiens with 10 samples.

Results

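The 6 genes described here, GAPT, LAT, LAT2, PAG1, LAX1 and SIT1, encode transmembrane signaling adaptors and were chosen by symbol from a table of 19590 genes. The choice was made because GAPT mRNA was nearly absent in Control and present in IRF8 KO libraries, so the GAPT values are given as a description, with no test. The samples were MV4-11 cells, an established acute myeloid leukemia (AML) cell line, and RNA-Seq was done in 4 Control and 4 IRF8 KO libraries. IRF8 is a myeloid and B cell transcription factor of the interferon regulatory factor family. Control cells were infected with the control vector. IRF8 KO cells were clones grown out by limiting dilution after infection with lentiCRISPRv2 carrying a guide RNA against IRF8, so both groups carry a lentiviral vector, and the infected cells had been selected with puromycin. By the methods of the study, 2 clones came from the first guide and 1 from the second, while the labels do not say which clone each IRF8 KO library is. Nothing in the labels says whether replicates were separate cultures, so p-values measure the spread between these libraries only.

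Transmembrane adaptors have a short outer part, a single membrane span and a cytoplasmic tail with tyrosines that SRC family and SYK family kinases phosphorylate. The phosphorylated tails dock proteins with SH2 domains, such as the RAS pathway adaptor GRB2, phospholipase C gamma or inhibitory kinases and phosphatases, and so pass on or dampen the signal of antigen receptors and Fc receptors. LAT is the central adaptor below the T cell receptor and also acts in mast cells and platelets. LAT2 has a like role in B cells, mast cells and myeloid cells. PAG1 recruits CSK, which holds SRC family kinases inactive. LAX1 and SIT1 are mainly lymphocyte adaptors that dampen signaling, and GAPT is a GRB2-binding adaptor of B cells and myeloid cells.

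Reads on genes numbered between 39560072 and 65519047 per library. IRF8 mRNA ranged from 15192.3 to 43015.5 normalized counts in Control and from 2401.0 to 12902.7 in IRF8 KO libraries. The IRF8 KO mean was 25.1% of that in Control. By Western blot, the paper reports that IRF8 protein was absent from the knockout clones. All 8 myeloid markers examined had means of 10 normalized counts or more. The defining T cell genes CD3D, CD3E and CD3G had at most 2.6 normalized counts in a library, and the B cell gene MS4A1 and the platelet genes PF4 and PPBP were at 0 in all 8 libraries. The summed B cell markers ranged from 481.1 to 976.4 in Control and from 435.8 to 1855.2 in IRF8 KO. Those of mast cells and basophils ranged from 155.3 to 314.8 and from 87.0 to 243.8. The platelet markers, nearly all of them ITGA2B, summed to between 5623.9 and 14574.7 in Control and between 2085.5 and 10103.0 in IRF8 KO. The NK markers, nearly all of them NCAM1, summed to between 5210.5 and 18507.9 in Control and between 695.9 and 5337.7 in IRF8 KO. Replicates 1 and 3 of both groups deviated together from their group means, as did replicates 2 and 4.

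The 250 bases before the start of GAPT, LAT and SIT1 are printed because these are the adaptors whose Control and IRF8 KO values do not overlap. RefSeq promoters were used for 4 of the 6 adaptors, the fourth being LAX1. The promoters of LAT2 and PAG1 were not searched, so nothing is said of their motifs. RefSeq lists another start of LAT farther downstream, whose window was not used. The sequences are from RefSeq (GRCh38.p14), read 5′ to 3′ on the strand of the gene. Capitals mark GGAA, or TTCC where it lies on the other strand, the core of the motif bound by ETS factors such as SPI1, with which IRF8 binds DNA. The windows are chr5:58491185-58491434 on the plus strand for GAPT, chr16:28984553-28984802 on the plus strand for LAT and chr9:35650932-35651181 on the minus strand for SIT1.
GAPT: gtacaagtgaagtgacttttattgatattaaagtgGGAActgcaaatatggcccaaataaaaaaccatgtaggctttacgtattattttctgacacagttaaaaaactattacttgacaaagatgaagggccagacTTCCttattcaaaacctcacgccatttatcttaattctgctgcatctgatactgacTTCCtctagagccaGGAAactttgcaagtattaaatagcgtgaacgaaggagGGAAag
LAT: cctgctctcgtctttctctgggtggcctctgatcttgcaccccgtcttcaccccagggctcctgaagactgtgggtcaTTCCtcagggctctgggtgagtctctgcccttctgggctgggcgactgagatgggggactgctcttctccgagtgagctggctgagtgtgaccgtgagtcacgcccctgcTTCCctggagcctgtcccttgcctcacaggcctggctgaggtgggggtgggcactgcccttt
SIT1: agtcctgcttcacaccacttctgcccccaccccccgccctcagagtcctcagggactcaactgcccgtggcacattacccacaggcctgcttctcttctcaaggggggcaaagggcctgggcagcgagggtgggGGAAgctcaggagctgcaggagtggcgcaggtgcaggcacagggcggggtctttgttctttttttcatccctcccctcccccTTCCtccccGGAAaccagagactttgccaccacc

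Motifs were searched on both strands in these bases and the 50 that follow the start. GGAA occurred 7 times in GAPT, 3 times in LAT, 5 times in LAX1 and 3 times in SIT1, and 95.5% of 35116 RefSeq promoters of the same length hold it. The composite ETS and IRF motif, GGAA then any 2 bases then GAAA, is held by 2.82% of promoters. The IRF motif, GAAA then any 2 bases then GAAA, is held by 3.57%. Neither had a match in the 4 adaptors. The shorter AANNGAAA, held by 22.8%, overlaps the end of both. It matched once in GAPT, as AAGTGAAA from the 18th base after the start, and once in LAX1, as TTTCCATT on the opposite strand from 32 bases before it. A match is a run of letters in this window and no evidence of binding.

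GAPT mRNA was present in all IRF8 KO libraries and at or near 0 in all Control libraries. Control replicate 1 had 2.4 normalized counts of GAPT, made of 3 reads, and Control replicates 2, 3 and 4 had none. A count of 0 there allows up to between 2.59 and 3.22 normalized counts, the value of 3 reads. IRF8 KO replicates 1 to 4 had 1031.5, 169.2, 1145.6 and 774.2, with a mean of 780.1 ± 436 (SD, n = 4). The lowest IRF8 KO library, replicate 2, thus lay far above the highest Control library. In both groups replicate 2 was also the library with the least IRF8 mRNA, at 2401.0 in IRF8 KO and 15192.3 in Control. A link between IRF8 mRNA and GAPT within the IRF8 KO libraries was not tested. In reads, GAPT took 2778 of 196226329 in the IRF8 KO and 3 of 222044116 in the Control libraries, and the ratio of these shares was 1048, with a 95% interval of 358 to 5084 that covers counting error only. On the log2(normalized count + 1) scale the difference of the group means was 8.85, a value that depends on the added 1 because the Control values are near 0, and it was 6.85 with 5 added.

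Some myeloid markers were higher in the same libraries as GAPT. The summed level of all 8 ranged from 21369.2 to 34709.0 in Control and from 51451.7 to 295810.7 in IRF8 KO, where LYZ, the lysozyme gene, made up 248603.8 in replicate 1. Of the 8 markers, 3 rose by limma (MPO, CD68 and ITGAM), where 8.65% of all tested genes were called higher. LYZ (log2 fold change 3.09), CD14 (1.35), SPI1 (0.29), CSF1R (-0.27) and CD33 (-0.34) did not pass the test, the last pair with values below 0. In the fit blocked by replicate number LYZ (adjusted p = 0.0021) and CD14 (adjusted p = 0.048) passed as higher and CD33 (adjusted p = 0.049) as lower. CD14, with a Control mean of 8.03, passed the filter only through the IRF8 KO libraries. Among the markers of mast cells and basophils, 1 of 4 tested was called, against 18.2% of all tested genes. It was CPA3, the mast cell carboxypeptidase. CPA3 had 0 normalized counts in all Control libraries and 6.4, 28.7, 27.1 and 53.1 in IRF8 KO replicates 1 to 4. It was thus absent from the counts in Control and passed the filter only through the IRF8 KO libraries. The other tested markers of that list were not called. KIT (log2 fold change -1.71, limma adjusted p = 0.11, groups apart) and TPSAB1 (-1.77, limma adjusted p = 0.28) were lower. KIT, with a mean of 8.54 in IRF8 KO, passed the filter only through the Control libraries. MS4A2 was higher (0.61, limma adjusted p = 0.60). The part of these markers in the GAPT values was not tested, and in these bulk samples fewer cells with a transcript and less of it per cell cannot be told apart.

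The 5 other adaptors were tested with limma on log2(normalized count + 1) over 13110 genes, and 2 of them, LAT and SIT1, fell at an adjusted p below 0.05. All 5 passed the filter of a mean of at least 10 normalized counts, LAX1 with few reads to spare. Of all tested genes 18.2% were called, 8.65% as higher and 9.56% as lower. In a fit blocked by replicate number the same 2 adaptors were called, against 28.7% of all genes. The groups did not overlap in the same 2 of the 5 adaptors, against 25.3% of all genes, and a count of 2 of 5 is too small to be set apart from these shares. Their values by library are shown in the plot of adaptor mRNA.

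**Figure D1:**
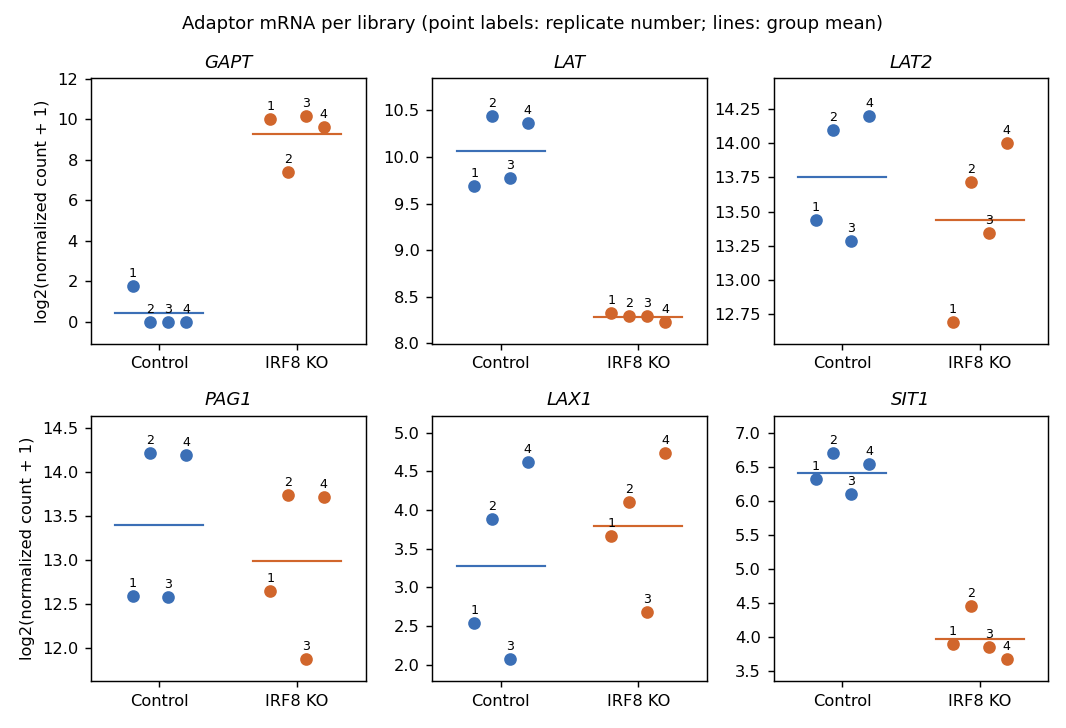
Each point is a library, with log2(normalized count + 1) on the y axis, replicate numbers above the points and lines at the group means. GAPT, LAT and SIT1 show separate groups, while LAT2, PAG1 and LAX1 overlap and, in the Control libraries, lie higher in replicates 2 and 4 than in replicates 1 and 3. The y axes differ between panels and do not start at 0.

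LAT mRNA was 827.0, 1389.6, 874.1 and 1322.9 normalized counts in Control replicates 1 to 4. It was 320.8, 313.5, 311.5 and 299.1 in the IRF8 KO replicates. The groups were well apart, and the IRF8 KO libraries lay close together (311.2 ± 9.02, SD, n = 4) where the Control libraries spread widely (1103 ± 294, SD, n = 4). LAT fell to 28.2% of the Control mean, with a log2 fold change of -1.78 and an SE of 0.20 (limma adjusted p = 5.1e-04, exact two-sided permutation p = 0.0286). That permutation p is the smallest that 4 against 4 libraries allow. The Control libraries of replicates 2 and 4 had 1.60 times as much LAT as replicates 1 and 3, and the IRF8 KO libraries 0.969 times, a contrast that was not tested. The log2 difference was -1.43 within replicates 1 and 3 and -2.14 within replicates 2 and 4.

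SIT1, which binds the phosphatase PTPN11 and GRB2, had few reads in every library. It had 79.6, 103.5, 67.7 and 92.3 normalized counts in Control and 13.9, 21.0, 13.5 and 11.8 in IRF8 KO replicates 1 to 4. No IRF8 KO library reached the lowest Control library. SIT1 fell to 17.6% of the Control mean, with a log2 fold change of -2.45 and an SE of 0.28 (limma adjusted p = 6.1e-04, exact two-sided permutation p = 0.0286). The IRF8 KO values rest on 13, 22, 10 and 12 reads, so their own order says little. The log2 difference was -2.34 within replicates 1 and 3 and -2.56 within replicates 2 and 4.

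The summed T cell markers ranged from 125.6 to 873.8 normalized counts in Control and from 8.9 to 32.5 in IRF8 KO, and the only 1 of the 6 measured that passed the filter, the costimulatory receptor CD28, was called lower. CD28 had 136.8, 860.8, 110.6 and 704.3 normalized counts in Control and 0.0, 18.2, 2.7 and 2.0 in IRF8 KO replicates 1 to 4. With a mean of 5.71 in IRF8 KO, CD28 passed the filter only through the Control libraries. CD2, an adhesion receptor of T and NK cells, went the other way, with 2.4, 0.9, 2.1 and 0.9 in Control and 10.7, 7.6, 20.3 and 4.9 in IRF8 KO, and was below the filter. The CD3 genes, which define T cells, were at or near 0 in both groups, and the kinases LCK and ZAP70, which act on LAT in T cells, had group means of at most 4.95 normalized counts. The part of CD28, CD2 or the NK gene NCAM1 in the LAT and SIT1 values was not tested.

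LAT2 was abundant in every library and did not pass the test. It had 11089.5, 17505.7, 9963.5 and 18846.8 normalized counts in Control and 6601.7, 13445.5, 10374.4 and 16444.1 in IRF8 KO replicates 1 to 4. The groups overlapped, and in both of them replicates 2 and 4 were above replicates 1 and 3, by 1.73 times in Control and 1.76 times in IRF8 KO. The log2 fold change was -0.32 with an SE of 0.32 (limma adjusted p = 0.55, exact two-sided permutation p = 0.4286).

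PAG1 showed the same order of replicates more strongly. Control replicates had 6178.2, 18922.0, 6133.0 and 18707.5 normalized counts and IRF8 KO replicates 6396.0, 13613.7, 3744.3 and 13384.7. Replicates 2 and 4 were 3.06 times as high as replicates 1 and 3 in Control and 2.66 times in IRF8 KO, a larger contrast than that between the groups. The log2 fold change was -0.41 with an SE of 0.54 (limma adjusted p = 0.68, exact two-sided permutation p = 0.5143). A fit blocked by replicate number had a smaller SE, 0.14, and an adjusted p of 0.066. PAG1 overlaps a long noncoding RNA locus in RefSeq, and the sources used here do not give the strand setting of the counting, so reads of the overlap cannot be told apart.

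LAX1 was near the limit of detection. It had 4.8, 13.8, 3.2 and 23.5 normalized counts in Control and 11.7, 16.2, 5.4 and 25.6 in IRF8 KO replicates 1 to 4. The groups overlapped, with the lowest library in Control and the highest in IRF8 KO, and replicates 2 and 4 were again the higher ones, 4.64 times replicates 1 and 3 in Control and 2.44 times in IRF8 KO. The log2 fold change was 0.52 with an SE of 0.67 (limma adjusted p = 0.66, exact two-sided permutation p = 0.4857). Each IRF8 KO library was above the Control library of the same number, by 1.13, 0.22, 0.60 and 0.12 on the log2 scale for replicates 1 to 4, and in the blocked fit the SE was 0.38 and the adjusted p 0.35.

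Ratios between adaptors within a library do not depend on how the library was scaled, apart from the added 1. Over the 10 pairs of the 5 tested adaptors, 6 log2 ratios did not overlap between the groups, each with an exact two-sided permutation p of 0.0286 and a Benjamini-Hochberg adjusted p of 0.0477 over the 10 pairs. Each of the 6 holds LAT or SIT1, which were already called, so the count restates those calls and adds no separate result. The share over other pairs of genes was not computed. The log2 ratio of LAT to LAT2 changed by -1.47 and that of LAT to LAX1 by -2.30. SIT1 fell against all 4 others, from 0.66 against LAT to 2.13 against LAT2, 2.04 against PAG1 and 2.96 against LAX1, the log2 ratio of the other adaptor to SIT1 being higher in the IRF8 KO by these amounts. LAT to PAG1 changed by -1.38 and did not pass (exact permutation p = 0.0857, adjusted 0.1071). LAT2 to PAG1 changed by 0.09 (exact permutation p = 0.8571), LAT2 to LAX1 by -0.83 (exact permutation p = 0.1714) and PAG1 to LAX1 by -0.92 (exact permutation p = 0.0571).

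Other GRB2- and kinase-binding membrane adaptors were compared next, from a list of 9 genes. Of the 7 whose mean was 10 normalized counts or more, 3 rose and 2 fell, 71.4% of the 7 against 18.2% of all genes. The list was drawn up with earlier results of these data known, so this share is a description and no test of an excess. The median log2 fold change of the 7 was 0.01, against -0.001 over all tested genes, and the changes went both ways. TRAT1, the T cell receptor interacting adaptor, was at 0 in all libraries, and CD247, the T cell receptor zeta chain, had means of 2.95 in Control and 7.13 in IRF8 KO.

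SCIMP, which links MHC class II and Toll-like receptors to LYN and GRB2, also fell. Its Control replicates had 646.8, 388.2, 531.6 and 441.6 normalized counts and its IRF8 KO replicates 81.0, 115.7, 104.3 and 94.4, with no overlap. SCIMP fell by 2.32 on the log2 scale with an SE of 0.22 (limma adjusted p = 2.6e-04). LIME1, which binds LCK and CSK, had 352.4, 424.4, 399.5 and 364.4 normalized counts in Control and 169.4, 192.1, 260.0 and 193.8 in IRF8 KO. It fell by 0.93 with an SE of 0.18 (limma adjusted p = 0.0083). LIME1 lies on chromosome 20, where the median over 351 tested genes was -0.925, and relative to that median its difference was -0.003.

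The 3 adaptors that rose work with activating receptors. TYROBP (DAP12), which pairs with activating myeloid and NK receptors, had 1830.9, 2034.8, 1887.9 and 1933.9 normalized counts in Control and 4985.1, 4046.0, 4394.3 and 3778.5 in IRF8 KO. It rose by 1.16 on the log2 scale with an SE of 0.12 (limma adjusted p = 3.6e-04). HCST (DAP10), which binds GRB2 and phosphoinositide 3-kinase, rose from 979 ± 146 to 2180 ± 757 (SD, n = 4 each), and its log2 difference was 1.11 with an SE of 0.24 (limma adjusted p = 0.012). The groups of both genes were apart. NFAM1, an activating receptor with its own signaling motif, had 226.1, 397.6, 230.9 and 347.4 normalized counts in Control and 4112.3, 1243.5, 1396.2 and 982.7 in IRF8 KO. All IRF8 KO libraries lay above all Control libraries, replicate 1 by far the most. Its log2 fold change was 2.48 with an SE of 0.43 (limma adjusted p = 0.0049). FCER1G, the common gamma chain of Fc receptors, had overlapping groups and a log2 fold change of 0.01 with an SE of 0.26 (limma adjusted p = 0.98), and so was not called. Nor was PRR7, at -0.36 with an SE of 0.28 (limma adjusted p = 0.44).

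**Figure D2:**
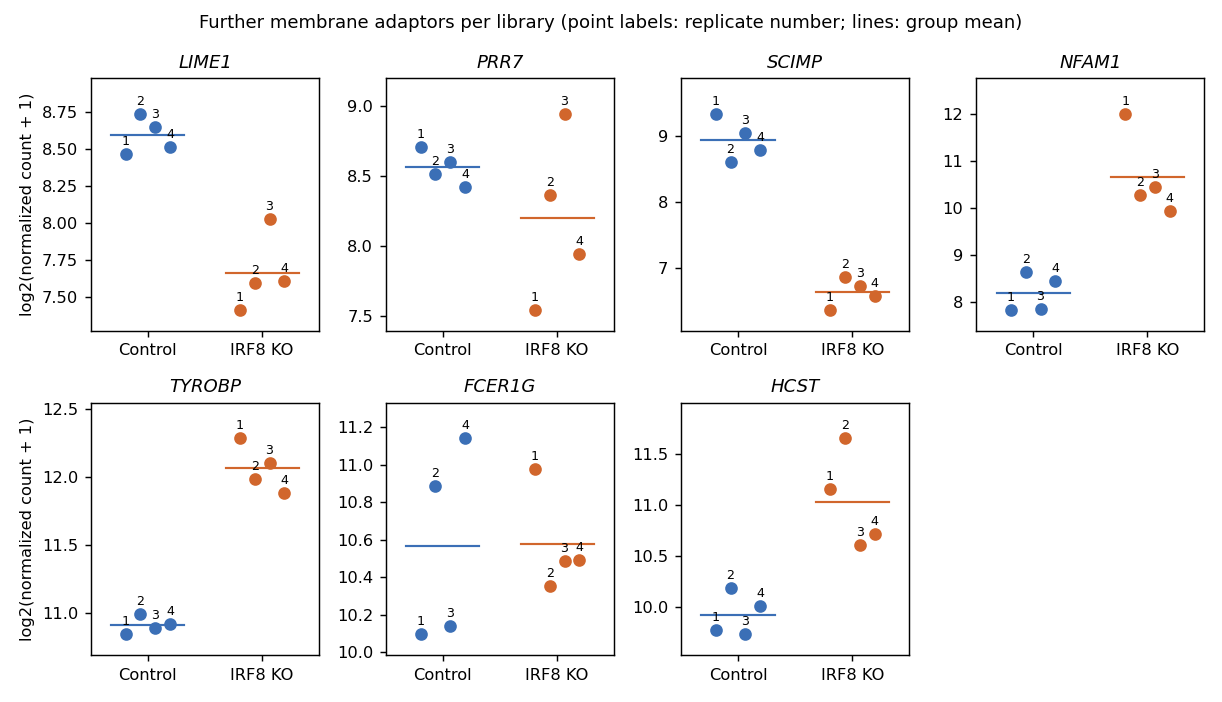
The y axis is log2(normalized count + 1) of the 7 further membrane adaptors that were tested. Points are libraries with their replicate numbers, and lines are group means. LIME1 and SCIMP are lower and NFAM1, TYROBP and HCST higher in all IRF8 KO libraries, while PRR7 and FCER1G overlap; axes differ between panels and do not start at 0.

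The proteins that the adaptors bind or are phosphorylated by were taken from 4 lists. Together with the membrane adaptors these hold 84 genes, 83 of them in the table, and 70 were tested. Of these 15 rose and 15 fell, or 42.9%, against 18.2% of all genes, with a median log2 fold change of -0.14. Without the genes of chromosome 20, 15 of 64 rose and 10 fell. The lists were drawn up with earlier results of these data known. These shares, and those of each list below, are thus a description and no test of an excess. The partners are shown in the plot of log2 fold changes by list.

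**Figure D3:**
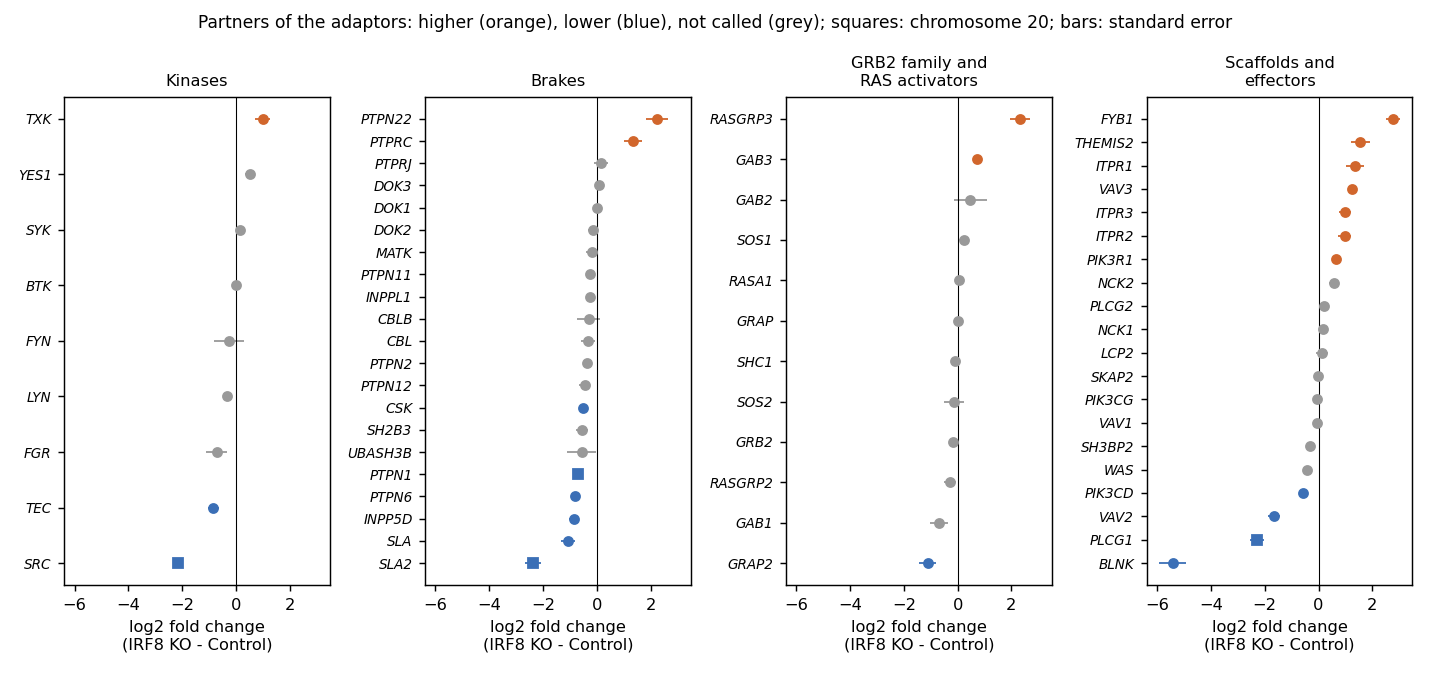
The x axis is the log2 fold change (IRF8 KO minus Control) of the tested partner genes other than 1 kinase, with bars for the standard error. Orange genes were called higher and blue genes lower by limma, and squares mark chromosome 20. BLNK, at -5.43, is the farthest from 0, and FYB1, at 2.77, is the highest.

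Of 10 tested kinases of the SRC, TEC and SYK families, 1 rose and 2 fell, 30.0% against 18.2% of all tested genes. A count of 3 of 10 is too small to be set apart from that share. SRC went from 2341 ± 321 in Control down to 532 ± 99.4 in IRF8 KO (SD, n = 4 each). Its log2 difference was -2.15 with an SE of 0.17 (limma adjusted p = 1.2e-04), and -1.22 relative to the median of chromosome 20, where it lies. TEC fell by 0.85 (limma adjusted p = 0.023) and TXK rose by 1.00 (limma adjusted p = 0.038). SYK, the kinase that phosphorylates adaptors in myeloid cells, had a log2 fold change of 0.16 (limma adjusted p = 0.48), and LYN, the main SRC family kinase of B and myeloid cells, -0.32 (limma adjusted p = 0.052). LYN and YES1 (log2 fold change 0.53) did not pass here and passed in the fit blocked by replicate number (adjusted p = 0.049 and 0.033). The TEC call was lost without Control replicate 2 or 4 or IRF8 KO replicate 3 or 4 (adjusted p between 0.05 and 0.063), and the TXK call without Control replicate 1, 3 or 4 or IRF8 KO replicate 1, 3 or 4 (0.06 to 0.1).

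The list drawn up as brakes that adaptors recruit also held PTPRC, which is not a brake on SRC family kinases but activates them. Of its 21 tested genes, 2 rose and 6 fell, 38.1% against 18.2% of all tested genes. INPP5D (SHIP1), a lipid phosphatase, fell by 0.87 on the log2 scale with an SE of 0.15 (limma adjusted p = 0.0049) and PTPN6 (SHP1) by 0.82 with an SE of 0.14 (limma adjusted p = 0.0041). The adaptors SLA2 and SLA, which send receptors for degradation, fell by 2.38 (limma adjusted p = 9.4e-04) and 1.08 (limma adjusted p = 0.021), SLA2 by 1.46 relative to the median of chromosome 20. CSK, the kinase that PAG1 recruits, fell from 9709 to 6856 normalized counts, by 0.50 (limma adjusted p = 0.04). The CSK groups overlapped, and its call was lost on leaving out any library other than Control replicate 4 or IRF8 KO replicate 3 (adjusted p between 0.069 and 0.11). PTPN11, the partner of SIT1, had a log2 fold change of -0.24 (limma adjusted p = 0.32). PTPN22, the phosphatase that works with CSK, rose by 2.24 with an SE of 0.41 (limma adjusted p = 0.0065), and PTPRC (CD45), which activates SRC family kinases, rose by 1.34 with an SE of 0.33 (limma adjusted p = 0.025). The PTPRC call was lost without Control replicate 1 or 3 or IRF8 KO replicate 1, 3 or 4 (adjusted p between 0.051 and 0.071), and the SLA call without Control replicate 1 or IRF8 KO replicate 1 or 4 (0.052 to 0.061).

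Of the GRB2 family and RAS activators, 2 of 12 rose and 1 fell. GRB2, which GAPT, LAT and LAT2 bind, had 21504 ± 456 normalized counts in Control and 19277 ± 948 in IRF8 KO (SD, n = 4 each). Its log2 difference of -0.16 did not pass the test, with an SE of 0.09 (limma adjusted p = 0.28). RASGRP3, a RAS activator that responds to diacylglycerol, rose from 168.9, 54.3, 137.5 and 75.3 to 422.0, 389.0, 720.4 and 504.7, with no overlap. Its log2 fold change was 2.31 with an SE of 0.38 (limma adjusted p = 0.0039). GRAP2 (GADS), which joins LAT to LCP2, fell from a mean of 31.2 to 14.3 (log2 fold change -1.12, limma adjusted p = 0.046). That call was lost with the replicate block (adjusted p = 0.057) and on leaving out any library other than IRF8 KO replicate 2 (adjusted p between 0.068 and 0.12).

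Of the cytosolic scaffolds and effectors, 7 of 20 rose and 4 fell, 55.0% against 18.2% of all tested genes. BLNK (SLP65), the scaffold of B cells and myeloid cells that SCIMP binds, had 424.8, 154.4, 545.5 and 300.4 normalized counts in Control and 7.5, 3.8, 14.9 and 3.9 in IRF8 KO. The IRF8 KO libraries thus held 2.11% of the Control mean, and the log2 fold change was -5.43 with an SE of 0.51 (limma adjusted p = 2.8e-04). With a mean of 7.53 in IRF8 KO, BLNK passed the filter only through the Control libraries. LCP2 (SLP76), the matching scaffold of the LAT complex, had a log2 fold change of 0.13 (limma adjusted p = 0.77). PLCG1, the phospholipase that LAT docks, fell from 1019.2, 672.8, 1054.6 and 635.5 to 163.0, 152.9, 238.3 and 128.9, a log2 difference of -2.30 with an SE of 0.26 (limma adjusted p = 5.3e-04), and of -1.37 relative to the median of chromosome 20. PLCG2, its counterpart in B and myeloid cells, had 0.21 (limma adjusted p = 0.54).

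The VAV exchange factors, which activate small GTPases, went different ways. VAV2 fell by 1.66 with an SE of 0.23 (limma adjusted p = 0.0017), VAV3 rose by 1.25 with an SE of 0.13 (limma adjusted p = 3.9e-04) and VAV1 had -0.07 (limma adjusted p = 0.75). FYB1 (ADAP), which couples LCP2 to integrins, rose from 1365.2, 797.0, 1282.2 and 1258.8 to 10891.9, 4697.8, 8838.8 and 8461.1, by 2.77 with an SE of 0.28 (limma adjusted p = 3.6e-04). THEMIS2, a GRB2-binding scaffold, rose by 1.56 with an SE of 0.34 (limma adjusted p = 0.014). The inositol trisphosphate receptors ITPR1, ITPR3 and ITPR2, which release calcium downstream of phospholipase C, rose by 1.35, 0.98 and 0.97 (limma adjusted p = 0.023, 0.021 and 0.031). The call of ITPR1 was lost without Control replicate 1 or 3 or IRF8 KO replicate 4 (adjusted p between 0.057 and 0.061), ITPR2 without Control replicate 1 or 3 or IRF8 KO replicate 1, 2 or 4 (0.068 to 0.083), and ITPR3 without Control replicate 2 or 4 (0.05 and 0.058).

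The genes on either side of GAPT on chromosome 5, by their order in RefSeq, were set beside it. Of the 5 tested among the 3 nearest on each side, 2 rose and none fell. Of all tested genes 8.65% were called higher and 9.56% lower. A count of 2 of 5 is too small to be set apart from these shares. PLK2, a stress-induced kinase and the nearest gene on one side, had 10.5, 1.7, 7.5 and 3.8 normalized counts in Control and 42.6, 11.5, 40.6 and 27.5 in IRF8 KO. Its groups did not overlap, and the log2 fold change was 2.25 with an SE of 0.58 (limma adjusted p = 0.029). With a mean of 5.87 in Control and 30.6 in IRF8 KO, PLK2 passed the filter only through the IRF8 KO libraries. RAB3C, a small GTPase gene on the other side, had 2.4, 0.9, 6.4 and 2.8 in Control and 26.6, 3.8, 27.1 and 16.7 in IRF8 KO. Its groups overlapped through IRF8 KO replicate 2, which was also the lowest IRF8 KO library for GAPT and PLK2. RAB3C had a log2 fold change of 2.13 that did not pass (limma adjusted p = 0.06), and it passed with the replicate block (adjusted p = 0.012). RAB3C, with a Control mean of 3.14, was also tested only because of its IRF8 KO values.

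PDE4D, a cyclic AMP phosphodiesterase beyond RAB3C, rose by 1.00 with an SE of 0.25 (limma adjusted p = 0.025). GPBP1 (0.22, limma adjusted p = 0.32) and DEPDC1B (-0.16, limma adjusted p = 0.80), farther out, did not pass, and ACTBL2 was below the filter. The median over the 592 tested genes of chromosome 5 was 0.22. The PLK2 call was lost without Control replicate 2 or 4 or IRF8 KO replicate 1, 3 or 4 (adjusted p between 0.058 and 0.078), and the PDE4D call without Control replicate 1, 2 or 3 or IRF8 KO replicate 1 (0.053 to 0.064).

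**Figure D4:**
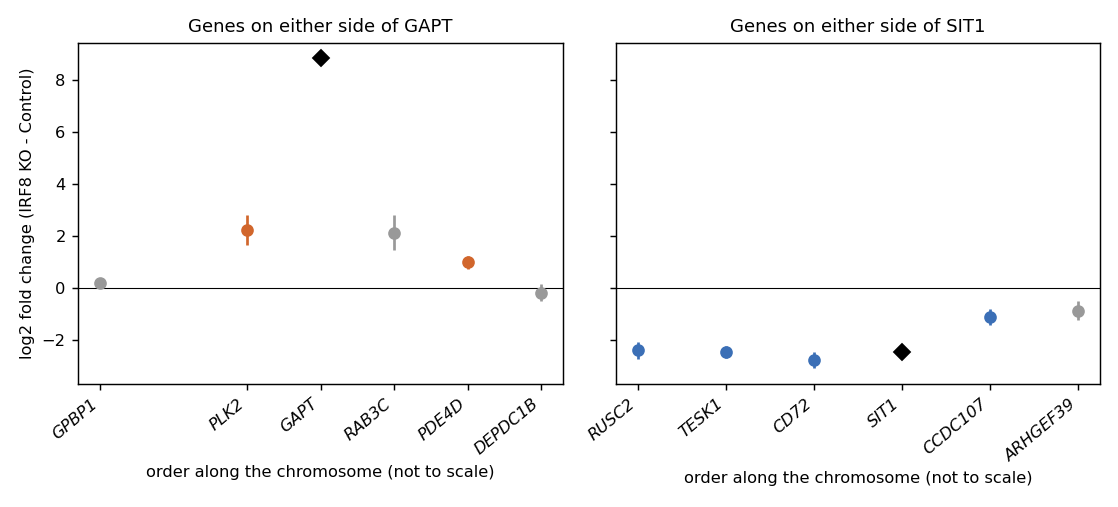
The y axis is the log2 fold change (IRF8 KO minus Control) of the tested genes nearest to GAPT and to SIT1, in their order along the chromosome and not to scale. Bars are standard errors, diamonds mark GAPT (8.85, no test) and SIT1, and orange, blue and grey are genes called higher, lower or not called. Beside GAPT, PLK2, RAB3C and PDE4D lie above 0, and beside SIT1 all 5 tested neighbours lie below 0.

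SIT1 lies among genes that were lower too, which were named after their values were seen. Of the 5 tested genes nearest to it on chromosome 9, 4 fell, against 9.56% of all tested genes called lower and 8.65% called higher. CD72, a B cell inhibitory receptor and the closest of them, had 535.8, 1015.2, 473.6 and 854.9 normalized counts in Control and 67.1, 138.6, 98.9 and 111.2 in IRF8 KO, a log2 fold change of -2.76 with an SE of 0.31 (limma adjusted p = 6.2e-04). TESK1, a kinase of the actin cytoskeleton, fell by 2.45 (limma adjusted p = 3.6e-04) and RUSC2 had -2.39 (limma adjusted p = 0.0014). The fourth, CCDC107, had -1.09 (limma adjusted p = 0.039) and lost its call on leaving out any library other than IRF8 KO replicate 3 (adjusted p between 0.057 and 0.1). The median over the 516 tested genes of chromosome 9 was near 0, at -0.004. Of the tested neighbours chosen in the same way, 2 of 6 fell for LAT, 2 of 5 fell and 1 rose for LAT2, 1 of 4 fell and 1 rose for PAG1, and none of 3 was called for LAX1. The neighbour of PAG1 that fell passed the filter only through the Control libraries. These counts for LAT, LAT2, PAG1 and LAX1 are too small to be set apart from the shares of all genes.

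The 5 tested genes whose log2 values over the 8 libraries were most like those of GAPT were GFOD1, CPT1C, NME8, SLPI and LRG1. Their Pearson correlations with GAPT ran from 0.991 to 0.998 over 8 libraries, given as a description, since the points share the difference between the groups that chose GAPT. NME8 was closest in form, with 1.6, 0.0, 0.0 and 0.0 normalized counts in Control and 101.2, 45.9, 107.0 and 176.1 in IRF8 KO replicates 1 to 4. SLPI, a secreted inhibitor of neutrophil proteases, had 4.0, 1.7, 2.1 and 0.9 in Control and 92.7, 22.0, 60.9 and 59.0 in IRF8 KO. GFOD1, CPT1C and LRG1 were present in all Control libraries, and their means were 2.36, 4.82 and 2.85 times as high in the IRF8 KO. In each of the 5 genes replicate 2 was the lowest IRF8 KO library, as it was for GAPT. That likeness comes with the choice, since the genes were picked for their correlation with GAPT over these same libraries.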

How the data were processed

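RNA-Seq libraries of 4 Control and 4 IRF8 KO samples were analysed; 2 ChIP-Seq samples were not analysed here. By the methods of the study, RNA was prepared with a stranded mRNA kit, aligned with RNA-Star and counted per gene with featureCounts. The submitters' processing notes list builds hg19 and hg38 without saying which served the RNA-Seq. The authors deposited a signal per gene and library, counts normalized with the size factors of DESeq2, and a table of their own comparison (log2 fold changes, standard errors and p-values), which was not used. In each library 100% of the values were whole reads within 0.01 reads once divided by the value of 1 read.

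Columns named as wild type were read as Control, replicate by replicate. The main test was limma 3.58.1 (R 4.3.3) on log2(normalized count + 1), with a trended, robust prior, over 13110 genes (mean 10 or more), adjusted by Benjamini-Hochberg. The filter took the mean of all libraries, so PLK2, CPA3, CD28 and BLNK, among others, passed only through the group where they were higher. Fold changes on this scale understate those of genes with low counts. Levels were not compared between genes, since no transcript lengths were used. Alternatives were pseudocounts of 0.5 and 5, filters of none and 100, upper quartile and quantile scaling, no trend, the replicate number as a block, leaving out each library, and the count models of edgeR 4.0.16 and DESeq2 1.42.0 run on recovered reads. A covariate of replicates 1 and 3 against 2 and 4, and the removal of chromosome 20, were chosen after seeing the data.

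The deviations of same-numbered Control and IRF8 KO libraries from their group means correlated at 0.368, 0.478, 0.452 and 0.502 across genes for replicates 1 to 4. Some unlike numbers correlated about as much. Control 1 with IRF8 KO 3 had 0.467 and Control 3 with IRF8 KO 1 had 0.406. Control 2 with IRF8 KO 4 had 0.396 and Control 4 with IRF8 KO 2 had 0.411. The values thus show a split of replicates 1 and 3 against 2 and 4, and do not show that equal numbers are pairs. The replicate number served as a block in an alternative fit. What a number marks is not given in the labels. The adaptors, the lists of partners and markers and the tests were chosen with earlier results of these data known. The genes named were the 6 adaptors, IRF8, the 25 called partner genes with the largest change, the further membrane adaptors, the 3 nearest genes on each side of GAPT and the 5 genes most like it. SYK, LYN, YES1, LCK, ZAP70, CSK, PTPN11, GRB2, LCP2, PLCG2, VAV1, the markers and the neighbours of SIT1 are outside that rule, named once their values had been seen. Partner genes outside the rule are counted and mostly not named, and 1 of them is not reported here. Motifs were searched in RefSeq promoters (GRCh38.p14), and genes were ordered along chromosomes with the same assembly.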

Additional observations from a re-analysis of the deposited data

Results flagged for a closer look

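Of 124 groups of 4 libraries examined, 5 held a library far from the other 3, where chance gives about 1 in 20. GAPT had 2.41 normalized counts in Control replicate 1 and 0 in the other Control libraries. NME8, whose values were like those of GAPT, had 1.61 in the same library and 0 in the others. NFAM1 stood at 4112.3 in IRF8 KO replicate 1, above the 982.7 to 1396.2 of the other IRF8 KO libraries. YES1 stood at 4269.0 in IRF8 KO replicate 1. CD28 stood at 18.2 in IRF8 KO replicate 2, above the 0.0 to 2.7 of the others.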

How the results depend on the processing

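LAT and SIT1 stayed called and lower under every alternative that tested them, with log2 fold changes of -1.91 to -1.66 for LAT and -2.61 to -2.18 for SIT1. With a filter of 100 only 1 of the adaptors was called, because SIT1 and LAX1 were then not tested; without each library in turn the number was 2. LAT2, PAG1 and LAX1 were called under none of the alternatives run. With 5 added to the counts the GAPT difference was 6.85, and without each library it was between 8.56 and 9.48. Without each library in turn, 11 to 14 partner genes were higher and 11 to 16 lower, and with replicates 1 and 3 against 2 and 4 as a covariate 17 were higher and 24 lower. The replicate number as a block takes libraries of equal number as pairs, which the correlations between libraries did not show them to be. With it, 2 adaptors, 17 higher and 19 lower partner genes were called. Of the 10 ratios of adaptors, 9 moved the same way in all 4 same-numbered pairs. The number of ratios that did not overlap was 6 to 7 without each library and 5 with 5 added. Over 54 single genes and 1018 values, 931 kept direction and call, 64 lost and 14 gained a call, and 9 changed sign, in FCER1G (-0.002 with upper quartile scaling, -0.053 with edgeR, -0.038 with DESeq2, and -0.144 to 0.204 with each library left out, below 0 without Control replicate 1 or 3 or IRF8 KO replicate 1), DEPDC1B (-0.462 to 0.031 with each library left out, above 0 without Control replicate 1 or 3) and LCP2 (-0.053 to 0.301 with each library left out, below 0 without IRF8 KO replicate 3), none of which was called. The cause was not tested. SIT1 and LAX1 rest on few reads, and depth limits what can be said of them.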
